A study of Mus musculus with 6 samples.

Results

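The 10 genes described here are 9 peptide hormone receptors of the secretin receptor family and Crhbp, a secreted protein that binds ligands of Crhr1. The receptors are Glp1r, Glp2r, Gcgr, Gipr, Sctr, Vipr1, Vipr2, Adcyap1r1 and Crhr1. All 10 names were found among the 19938 genes with a probe set of their own, and each gene was read by its brightest such probe set. The set was chosen by family, around Glp1r and Crhbp, which were selected on their large differences in the same CRE-ERT2 against ERT2 comparison described here. Their differences are therefore given as descriptions with intervals and without a p-value.

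The cells were mouse pre-B cells of strain 129P2/OlaHsd, transformed with BCR-ABL1, the fusion kinase of Philadelphia chromosome-positive acute lymphoblastic leukaemia (Ph+ ALL). In all of them the labels give the genotype Ptpn6 +/fl, with 1 floxed copy of the gene for the phosphatase SHP-1, and all received 0.5 micromolar 4OH-Tamoxifen for 2 days. A set of 3 arrays came from cells transduced with PMIP-ERT2, which carries the hormone-binding domain without a recombinase, and the other 3 came from cells transduced with PMIP-CRE-ERT2, in which tamoxifen frees the Cre recombinase. The control lacks Cre altogether, so loss of the floxed Ptpn6 copy and any other action of Cre cannot be told apart, and the labels do not say whether the 3 samples of a group were separate cultures. Ptpn6 itself, read by 1 probe set whose place relative to the floxed part is not known here, differed by -0.07 (standard error 0.08), so the groups are named as labelled.

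Receptors of this family, known as class B1, have a large extracellular domain that grips the C-terminal part of a peptide hormone. Most of them act through the stimulatory G protein, which turns on adenylyl cyclase. The cyclic AMP (cAMP) that it makes activates protein kinase A and the exchange factor EPAC, and protein kinase A in turn phosphorylates the transcription factor CREB. Glp1r and Gipr are best known for raising insulin secretion in pancreatic beta cells, while Vipr1 and Vipr2, the receptors for vasoactive intestinal peptide, are the members classically studied in lymphocytes. Crhbp holds corticotropin-releasing hormone and urocortin away from the receptor Crhr1.

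Of the 10 genes, 1 (Glp1r) rose and 2 (Vipr2 and Crhbp) fell with CRE-ERT2, while 7 stayed above the threshold. That threshold was an adjusted p of 0.05 with limma, a linear model fitted to all genes. Among all genes 4.58% passed, 2.30% as higher and 2.28% as lower. For the same 3 genes the groups did not overlap, as was the case for 22.5% of all genes. No weight is placed on these counts, since the genes were gathered with the comparison known. The median difference of the 10 genes was -0.03 on the log2 scale, equal at this precision to the -0.03 of all genes.

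**Figure D1:**
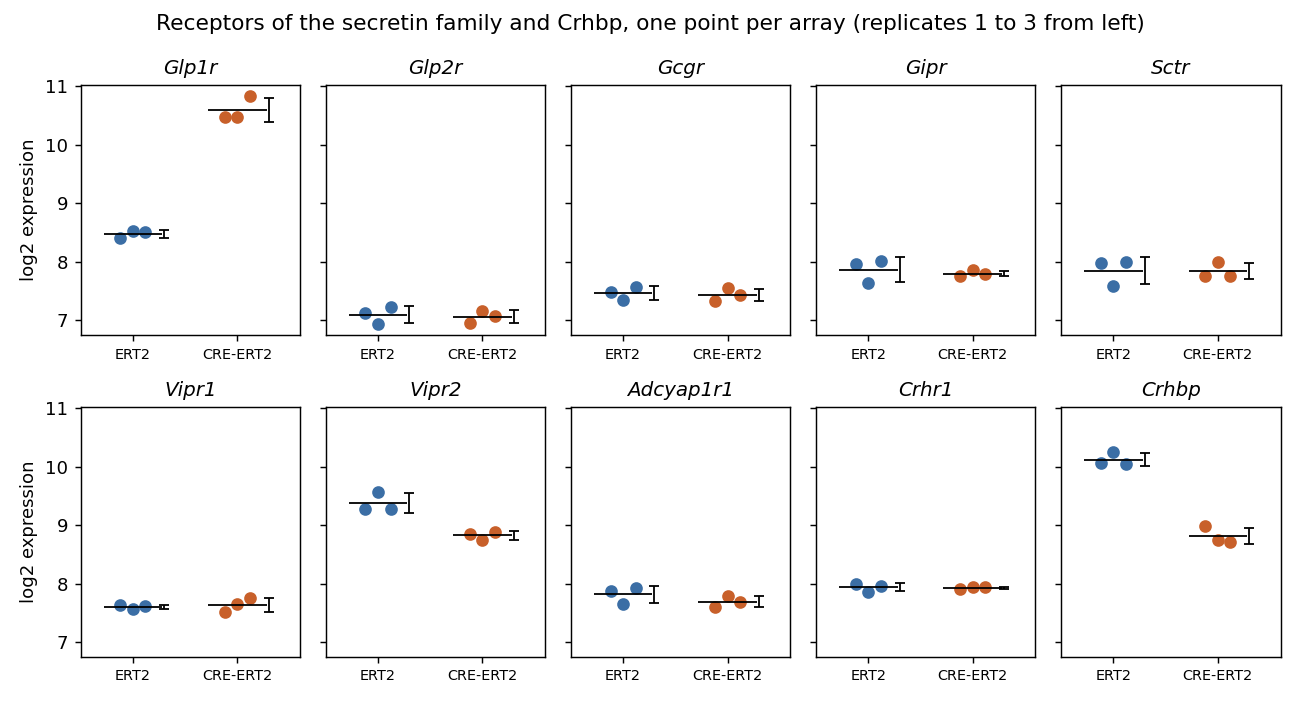
Log2 expression of each of the 10 genes on each of the 6 arrays, with ERT2 in blue and CRE-ERT2 in orange; lines are group means and bars are 1 SD (n = 3). Glp1r lies above its control arrays by at least 1.95, Vipr2 and Crhbp lie below theirs by at least 0.39 and 1.07, and the other 7 genes overlap between groups.

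The bases before the annotated start of the 3 genes that passed are shown because the path downstream of these receptors ends at CREB, whose binding element can be looked for there. The windows are the 250 bases before the start, on the strand of the gene, from RefSeq on GRCm38.p6: Glp1r at chr17:30901617-30901866 (plus strand), Vipr2 at chr12:116077476-116077725 (plus strand) and Crhbp at chr13:95444832-95445081 (minus strand). Capitals mark the motifs found on either strand.
Glp1r: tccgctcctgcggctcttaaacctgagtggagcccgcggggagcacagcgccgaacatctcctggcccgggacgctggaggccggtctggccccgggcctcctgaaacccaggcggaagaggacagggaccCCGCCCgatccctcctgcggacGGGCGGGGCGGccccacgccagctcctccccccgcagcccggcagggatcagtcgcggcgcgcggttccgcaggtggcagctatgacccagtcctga
Vipr2: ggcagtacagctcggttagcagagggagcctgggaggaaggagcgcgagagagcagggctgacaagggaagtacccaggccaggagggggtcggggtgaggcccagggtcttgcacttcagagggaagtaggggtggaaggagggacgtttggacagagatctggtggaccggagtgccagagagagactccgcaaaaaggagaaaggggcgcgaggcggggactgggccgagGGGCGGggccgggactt
Crhbp: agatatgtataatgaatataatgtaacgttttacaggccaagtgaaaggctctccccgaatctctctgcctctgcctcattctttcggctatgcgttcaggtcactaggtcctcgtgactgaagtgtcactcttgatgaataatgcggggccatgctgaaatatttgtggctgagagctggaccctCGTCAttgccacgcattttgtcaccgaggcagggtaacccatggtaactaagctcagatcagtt
The motifs searched were the full cAMP response element TGACGTCA, its shorter core TGACG, the GC box GGGCGG and the TATA box TATAAA. The core is contained in the full element, so their matches can overlap. Glp1r held 3 GC boxes, whose first bases lie at -119, -97 and -92, and Vipr2 held 1 at -17. Crhbp held no GC box and 1 copy of the core, at -64. None of the 3 windows held the full element, and none held a TATA box before the start, although in Crhbp a TATAAA begins at base 31 counted from the annotated start. Among all 32851 RefSeq windows of this length, 1.55% held the full element, 17.8% the core, 32.7% a GC box and 12.4% a TATA box. The Glp1r window was 73.2% G or C, that of Vipr2 65.2% and that of Crhbp 47.2%, against a mean of 53.2% over all windows.

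RefSeq windows were found for 8 of the 10 genes, all but Gipr and Sctr. In the other 5 windows the full element was not found, and the core was found in Vipr1 alone, at -13. GC boxes were found in Gcgr (2), Vipr1 (3), Adcyap1r1 (1) and Crhr1 (1), and not in Glp2r, which was 50.4% G or C.

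Among the receptors for glucagon-like peptides, glucagon and the incretin GIP, Glp1r alone passed. Its log2 expression was 8.40, 8.52 and 8.51 in the arrays labelled ERT2 and 10.48, 10.48 and 10.83 in those labelled CRE-ERT2. The control arrays lay within a narrow range, and CRE-ERT2 replicate 3 was the highest array. The means were 8.48 ± 0.07 and 10.60 ± 0.20 (SD, n = 3 each), a difference of 2.12 with a 95% interval from 1.91 to 2.33, or 4.33-fold (3.75 to 5.02). Ordered by difference, Glp1r stood at place 2 from the top of the 19938 genes.

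Its nearest relatives in the same branch gave overlapping groups. Glp2r, the receptor for the gut growth peptide GLP-2, read 7.13, 6.94 and 7.23 in the control arrays and 6.96, 7.17 and 7.07 with CRE-ERT2, a difference of -0.03 (95% interval -0.23 to 0.16). Gcgr, the glucagon receptor that drives glucose output in liver, read 7.49, 7.35 and 7.57 against 7.33, 7.55 and 7.43, a difference of -0.04 (-0.22 to 0.15). Gipr, the other incretin receptor, read 7.96, 7.63 and 8.02 against 7.76, 7.85 and 7.79, a difference of -0.07 (-0.28 to 0.14). For each of these 3 receptors the interval of the probe set signal leaves out a change of the size seen in Glp1r. Whether they were detected is not known, so the interval does not bound a change in their RNA.

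Of the receptors for secretin, vasoactive intestinal peptide (VIP) and the related peptide PACAP, Vipr2 was lower in the CRE-ERT2 arrays. It read 9.28, 9.57 and 9.28 in the control arrays and 8.85, 8.74 and 8.89 with CRE-ERT2. The second control array stood above the others, and each control array was above every CRE-ERT2 array. The means were 9.38 ± 0.17 and 8.83 ± 0.08 (SD, n = 3 each), a difference of -0.55 (95% interval -0.75 to -0.35), which is 1.46-fold lower (1.28 to 1.68). Ordered by difference it stood at place 92 from the bottom. Vipr2 passed in 13 of 14 alternative settings, the exception being a test of all 35556 probe sets together.

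The other receptors of this branch did not pass. Vipr1, which binds the same peptides as Vipr2, read 7.64, 7.56 and 7.62 in the control arrays and 7.52, 7.65 and 7.75 with CRE-ERT2. The difference was 0.03 (95% interval -0.14 to 0.21), and its interval does not meet that of Vipr2, although the difference between the receptors was not itself tested. Vipr1 had a second, dimmer probe set, which gave 0.07 (-0.27 to 0.41). Adcyap1r1, the receptor that prefers PACAP, read 7.87, 7.66 and 7.92 against 7.60, 7.80 and 7.69, a difference of -0.12 (-0.31 to 0.07). Sctr, the secretin receptor of pancreatic and bile ducts, read 7.98, 7.58 and 7.99 against 7.75, 7.99 and 7.76, a difference of -0.01 (-0.25 to 0.23).

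In the corticotropin-releasing hormone branch the binding protein changed and the receptor did not pass. Crhbp read 10.06, 10.24 and 10.04 in the control arrays and 8.98, 8.75 and 8.71 in the CRE-ERT2 arrays. The lowest control array was 1.07 above the highest CRE-ERT2 array. The means were 10.12 ± 0.11 and 8.81 ± 0.14 (SD, n = 3 each), a difference of -1.30 (95% interval -1.50 to -1.11), which is 2.47-fold lower (2.16 to 2.82), at place 8 from the bottom. Crhr1, the receptor that starts the stress hormone axis in the pituitary, read 7.99, 7.86 and 7.96 against 7.91, 7.94 and 7.93, a difference of -0.01 (-0.16 to 0.15).

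**Figure D2:**
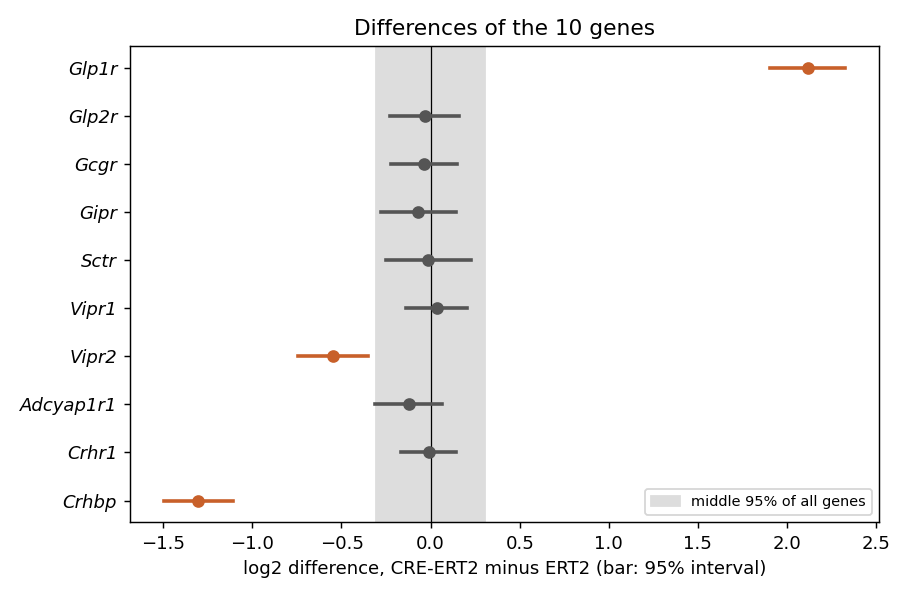
Log2 difference (CRE-ERT2 minus ERT2, horizontal axis) of each of the 10 genes with its 95% interval; orange marks the 3 genes that passed, and the grey band holds the middle 95% of all genes (-0.31 to 0.30). The 7 other genes have differences from -0.12 to 0.03 and lie within the band, though the interval of Adcyap1r1 reaches -0.31.

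The 7 receptors that did not pass shared a pattern across arrays that the groups do not explain. In each of the 7, the lowest control array was ERT2 replicate 2 and the lowest CRE-ERT2 array was CRE-ERT2 replicate 1. The same arrays were lowest more widely among dim genes. Among the dimmest genes (a share of 0.333), ERT2 replicate 2 was the lowest control array for 65.1% and CRE-ERT2 replicate 1 the lowest of its group for 58.8%, against 37.4% and 25.4% of the brighter genes. Of the 7 receptors, only Glp2r belongs to that share. Signal over background is unknown in this table, so whether these 7 receptors were detected cannot be said, and a change in a gene near background would appear smaller than it was. In Glp1r, Vipr2 and Crhbp the order was different, with ERT2 replicate 2 the highest control array in each.

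**Figure D3:**
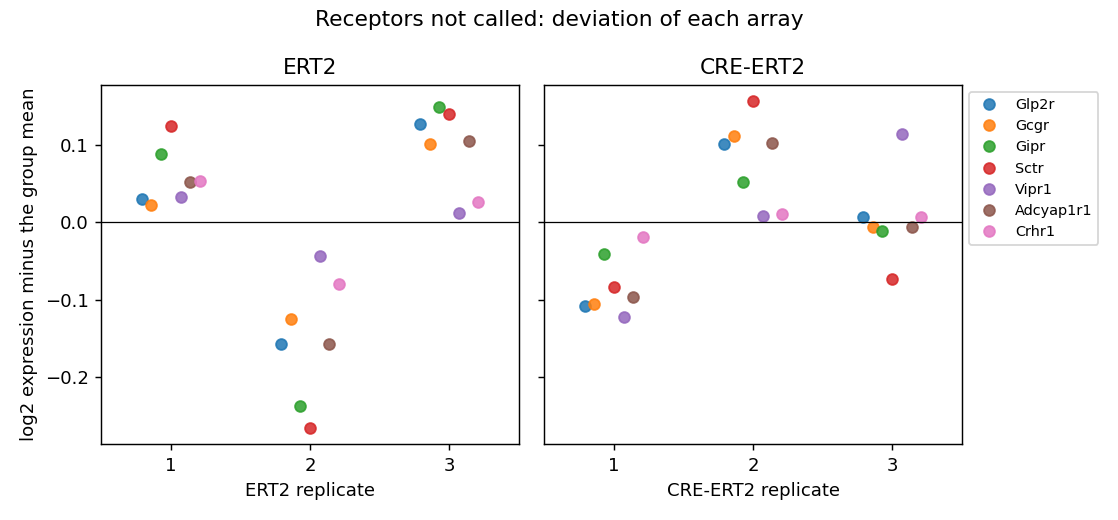
Deviation of each array from its group mean (log2, vertical axis) for the 7 receptors that did not pass, by replicate, with ERT2 at left and CRE-ERT2 at right. ERT2 replicate 2 and CRE-ERT2 replicate 1 are the lowest array of their group for all 7 receptors.

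The labelled cell type was set beside markers of tissues where these receptors are known. Of 14 pre-B cell markers 13 were measured, and their mean log2 expression ran from 11.80 to 11.89 over the control arrays and from 11.84 to 11.91 over the CRE-ERT2 arrays. Among them 2 rose, Cd22 (0.37) and Bst1 (0.31), and 2 fell, Rag2 (-0.53) and Il7r (-0.43), with adjusted p of 0.0271, 0.0271, 0.00426 and 0.00349 in that order with limma. Over all genes 4.58% passed in either direction. Bst1 lost its call whichever array was removed (0.0519 to 0.119), and Cd22 on removing ERT2 replicate 1 (0.122) or, from CRE-ERT2, replicate 1 (0.101) or 3 (0.0590). With all probe sets tested, Rag2 (0.0911), Cd22 (0.176) and Bst1 (0.110) did not pass. Of 11 pancreatic islet markers measured 0 passed, and their mean level was 7.32 to 7.50 and 7.37 to 7.59 in the same groups. Of 9 neuronal markers 0 passed (7.09 to 7.25 and 7.08 to 7.24), and neither did any of 10 myeloid, 8 T and NK cell, 8 stromal and 4 erythroid markers. The part of other cells in the changes of Glp1r, Vipr2 and Crhbp was not tested beyond these values, and fewer cells of a type and less RNA per cell cannot be told apart in bulk RNA.

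None of the 8 nearest measured genes passed in the direction of the gene it lies beside. Among all genes only 2.30% passed as higher and 2.28% as lower, so this count says little about the neighbours. On chromosome 17, the nearest measured genes before Glp1r in GRCm38.p6 order were Glo1, a detoxifying glyoxalase (-0.15), and the dynein gene Dnah8 (0.0047), and after it came Umodl1 (-0.10) and the cholesterol exporter gene Abcg1 (-0.41). Abcg1 fell, opposite to Glp1r, with a standard error of 0.09 and an adjusted p of 0.0169 with limma. It did not pass without CRE-ERT2 replicate 3 (0.111) or with all probe sets tested (0.150). On chromosome 13, around Crhbp, Zbed3 (-0.10), Aggf1 (-0.20), S100z (0.07) and the thrombin receptor gene F2r (0.02) did not pass.

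**Figure D4:**
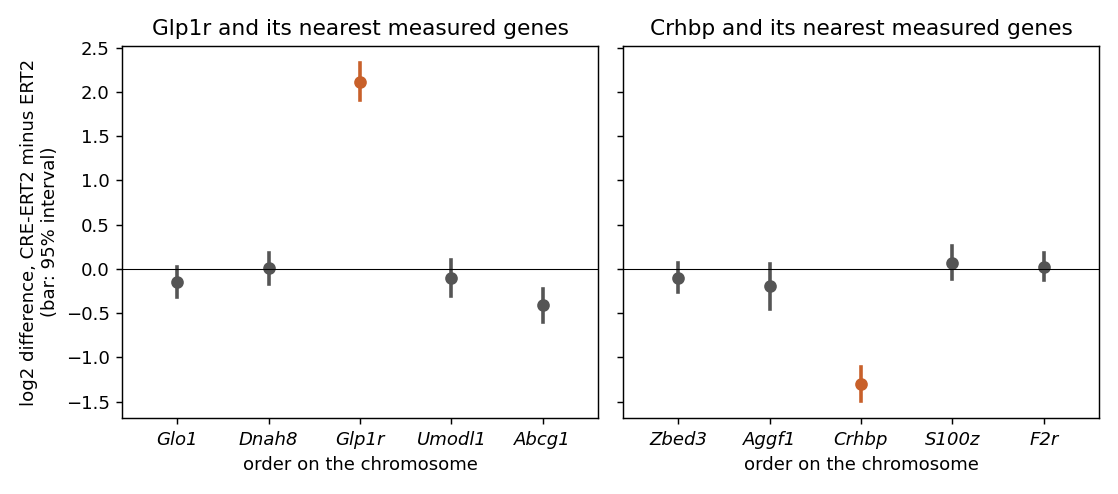
Log2 difference (CRE-ERT2 minus ERT2) with its 95% interval for Glp1r (left) and Crhbp (right) and the nearest measured genes in chromosomal order. The neighbours lie between -0.41 and 0.07, against 2.12 for Glp1r and -1.30 for Crhbp.

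Genes whose profile over the 6 arrays lay closest to that of Glp1r were found by the root mean square difference after each gene's control mean was subtracted. They were Ly6f (0.24), the granzyme gene Gzma (0.29), the E-cadherin gene Cdh1 (0.39), the carboxypeptidase gene Cpe (0.41) and the inhibitory receptor gene Ctla4 (0.48). The distances around Crhbp were smaller. Its closest were the phosphatase gene Ptpn22 (0.10), the metallothionein gene Mt1 (0.11), the calcineurin regulator gene Rcan2 (0.11), Slamf7 (0.12) and the lysosomal reductase gene Ifi30 (0.12). Since only the control mean was subtracted, this distance depends largely on the size of the group difference, on which Glp1r and Crhbp were selected. The differences of the named genes ran from 1.47 (Ctla4) to 2.38 (Gzma) around Glp1r and from -1.42 (Slamf7) to -1.16 (Ifi30) around Crhbp. Immunoglobulin chain genes and some other gene families were left out of the search by name. Shared regulation was not tested.

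Further along the signalling path, 10 of 123 genes measured in 10 lists passed (8.13%, against 4.58% of all genes). Of these 6 were higher, 4 were lower, and the median difference over the 123 genes was -0.0020. The lists were written with earlier results of these data known, so no weight is placed on this count. The adjusted p-values of their genes share this limit. Removing ERT2 replicate 1 brought the count to 6, removing CRE-ERT2 replicate 2 brought it to 5, and testing all probe sets brought it to 2. With the table quantile normalized, 60.9% of the genes that passed over the whole table were higher, against 50.2% as deposited. Other settings moved this share both ways, from 38.0% with a trended and robust variance and 42.9% with the dimmest genes left out to 63.1% with all probe sets tested or without CRE-ERT2 replicate 3.

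Genes of hormones that class B1 receptors bind included none that passed. Of 10 ligand genes measured 0 passed, with differences from -0.16 to 0.10. Since 4.58% of all genes passed, a count of 0 in so short a list says little, here and in the lists below. Of the 10 ligand genes 6 belong to the dimmest share, and whether any was detected is not known. The lowest p belonged to Vip, the ligand of Vipr1 and Vipr2, which read 6.79, 6.48 and 6.61 in the control arrays and 6.31, 6.61 and 6.50 with CRE-ERT2, a difference of -0.16 (limma adjusted p = 0.488). Ucn3, a urocortin, differed by -0.12 (adjusted p = 0.643). The ligand genes include Gcg, which encodes glucagon and both glucagon-like peptides, Gip, Sct, Adcyap1 and Crh.

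Among 9 other class B1 receptors and receptor activity-modifying proteins, 1 rose. Ramp2, which accompanies the receptor Calcrl to form the adrenomedullin receptor, read 9.00, 9.08 and 8.95 in the control arrays and 9.42, 9.46 and 9.28 with CRE-ERT2. It rose by 0.38 (standard error 0.08, limma adjusted p = 0.0136), with every CRE-ERT2 array above every control array. Leaving out ERT2 replicate 1 (0.0569) ended this call, as did leaving out replicate 1 (0.0599) or 2 (0.0700) of CRE-ERT2, or testing all probe sets (0.108). Its partner Calcrl differed by -0.18 (adjusted p = 0.237). Of 6 peptidase genes whose products can cut such hormones, among them Dpp4, the enzyme that inactivates the incretins, 0 passed. Ece1, the endothelin-converting enzyme gene, had a difference of 0.29 (0.0687) and passed in 4 of the alternative settings, among them a quantile normalization of the table (0.0262).

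At the G protein step, genes of 2 adenylyl cyclases, the enzymes that make cAMP, rose. Of 16 G protein and adenylyl cyclase genes, 14 stayed above the threshold and 0 fell, and the median was -0.02; Gnas, the stimulatory G protein gene, was not analysed here. Adcy6 read 10.37, 10.42 and 10.36 in the control arrays and 11.05, 11.03 and 10.91 with CRE-ERT2. It rose by 0.62 (standard error 0.07, limma adjusted p = 0.000223), or 1.53-fold. Adcy7, the isoform known from blood cells, read 10.13, 10.09 and 10.06 against 10.54, 10.45 and 10.40 and rose by 0.37 (0.07, adjusted p = 0.00962), or 1.29-fold. Adcy6 passed in all 14 alternative settings, while Adcy7 did not pass with all probe sets tested (0.0759).

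Of 16 cAMP effector genes, 1 rose, 2 fell and the median was -0.01. The groups did not overlap for 8 of them, against 22.5% of all genes. Prkar2a and Prkar2b, which encode the type II regulatory subunits that hold protein kinase A inactive, fell by 0.37 (standard error 0.09, limma adjusted p = 0.0327) and by 0.35 (0.07, adjusted p = 0.0188). Rapgef3, which encodes the cAMP-driven exchange factor EPAC1, rose by 0.34 (0.07, adjusted p = 0.0205). Each of these 3 calls depended on single arrays. The call of Prkar2a was lost on removing any array other than ERT2 replicate 3, and its adjusted p then ran from 0.0621 (ERT2 replicate 2 removed) to 0.142 (CRE-ERT2 replicate 3 removed). That of Prkar2b was lost on removing ERT2 replicate 1 (0.0748) or, from CRE-ERT2, replicate 2 (0.0938) or 3 (0.107). That of Rapgef3 was lost on removing replicate 1 (0.0539) or 2 (0.0629) of ERT2, or replicate 1 (0.0687) or 2 (0.103) of CRE-ERT2. With all probe sets tested the values were 0.203 for Prkar2a, 0.112 for Prkar2b and 0.113 for Rapgef3.

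Among phosphodiesterase, CREB family and cAMP-induced genes, only 2 of the cAMP-induced genes, Btg2 and Irs2, passed. Of 16 phosphodiesterase genes, which degrade cyclic nucleotides, 0 passed. Pde1b came nearest, at 0.27 (standard error 0.07, limma adjusted p = 0.0517), and Pde4d differed by -0.19 (0.217). Pde1b passed in 5 of the alternative settings, among them with the dimmest genes left out (0.0256). Of 13 genes of the CREB family, its coactivators and the kinases that restrain them 0 passed, with a median of -0.06. Creb3 (0.18) and Creb3l2 (0.18) had the lowest p. In 10 of the 13 the groups did not overlap, as was the case for 22.5% of all genes. Their list held small differences in both directions, from -0.15 (Crtc1) to 0.19 (Crtc2). No weight is placed on that count, which shares the limit of the lists. Of 19 genes known to be induced by cAMP, 2 rose, 0 fell and the median was 0.03. Per1 had the lowest difference of this list, -0.31 (standard error 0.09). In some alternative settings, among them with the dimmest genes left out or without ERT2 replicate 3, 1 gene of the list passed as lower. Btg2, an antiproliferative gene that p53 also induces, rose by 0.43 (0.08, adjusted p = 0.00659) with limma, and the insulin receptor substrate gene Irs2 rose by 0.42 (0.08, adjusted p = 0.00815). Neither passed with all probe sets tested (0.0805 and 0.0917).

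The list of arrestin, receptor kinase and RGS genes, and that of other receptors of the stimulatory G protein, each had 1 gene that fell. Of 9 arrestin, receptor kinase and RGS genes measured, Rgs18 fell. This gene encodes a blood cell protein that speeds the shut-off of some G protein alpha subunits. Whether it acts on signalling by the receptors described here was not tested. Rgs18 read 12.20, 12.19 and 12.14 in the control arrays and 11.16, 10.87 and 11.20 with CRE-ERT2. It fell by 1.10 (standard error 0.09, limma adjusted p = 1.26e-05), or 2.14-fold lower. Rgs18 passed in all 14 alternative settings, and Arrb1, a beta-arrestin gene, differed by -0.20 (adjusted p = 0.173). Of 9 other leukocyte receptors, Gpr65, which senses acid, fell by 0.35 (0.08, adjusted p = 0.0198), and the prostacyclin receptor gene Ptgir differed by -0.22 (0.169). Gpr65 did not pass without CRE-ERT2 replicate 2 (0.109) or CRE-ERT2 replicate 3 (0.0874), or with all probe sets tested (0.121).

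**Figure D5:**
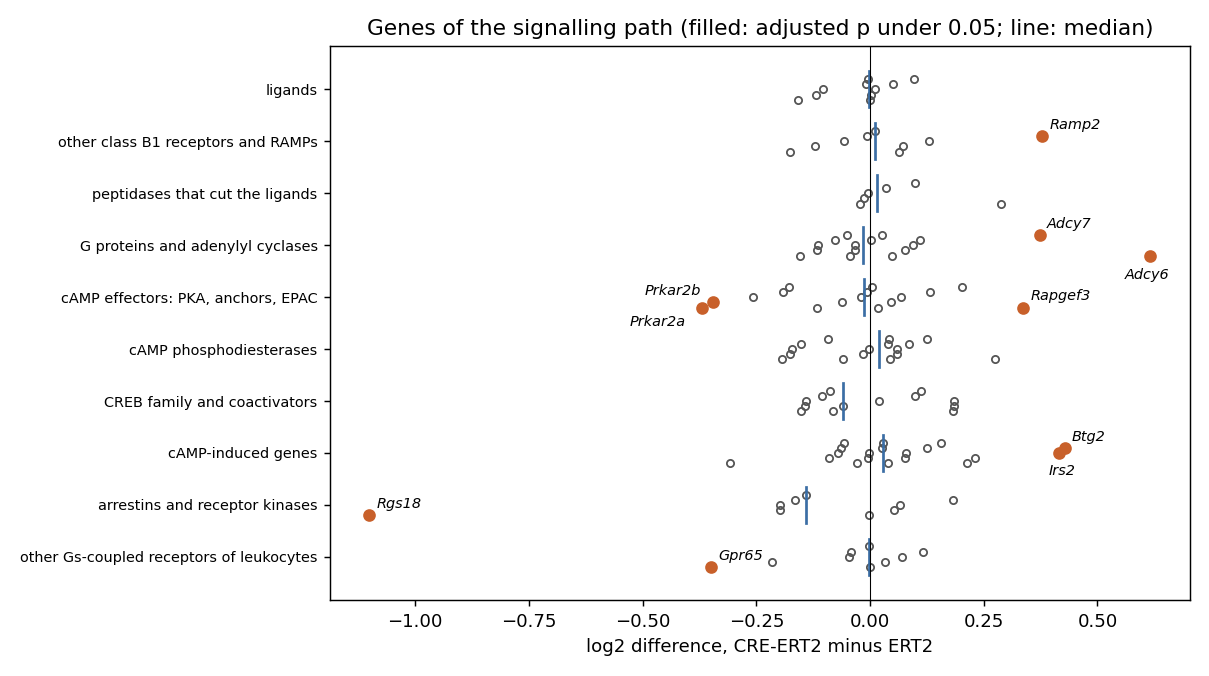
Log2 difference (CRE-ERT2 minus ERT2, horizontal axis) of the 123 measured genes in the 10 lists; filled orange points passed with limma, open points did not, and each blue line is a list's median. The 10 filled genes run from Rgs18 at -1.10 to Adcy6 at 0.62.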

How the data were processed

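Total RNA of 6 samples, labelled with biotin, was read on Affymetrix gene arrays (per the labels). The table that the authors deposited gives log2 expression by probe set. The submitters' processing notes name RMA and Partek 6.5 but not how each was used, and the log2 scale was read from the values, whose array medians are 7.90 to 7.98. Of its 35556 probe sets, 21789 have 1 gene in the platform annotation, 1621 several and 12146 none. Entrez identifiers of 21698 were found in the GRCm38.p6 gene table.

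For each gene the brightest single-gene probe set was kept. The 19938 genes were fitted with limma 3.58.1 in R 4.3.3 (lmFit, eBayes, two-sided, group as the only term), with Benjamini-Hochberg adjustment over all genes. Since the labels name no separate cultures, a p-value reflects the variation among these samples alone and may cover only technical error. Precision is limited by there being 6 arrays. Pathway names were matched by symbol or synonym (123 of 133). Members and lists were chosen with earlier results of these data known. In each list up to 4 passing genes with the largest change were named, filled up to 2 by smallest p; the 5 closest profiles and the nearest 2 measured genes on each side were named for Glp1r and Crhbp. Predicted genes and clones were passed over among the profiles. So were, by name, immunoglobulin heavy and light chain genes, T cell receptor segments, and olfactory and vomeronasal receptor genes. Scan dates were not used here, so batches could not be tested.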

Additional observations from a re-analysis of the deposited data

How the results depend on the processing

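With 3 arrays a group and signal over background unknown, the precision of every value here is limited by the number of arrays. In 14 alternative settings Glp1r kept a difference of 2.00 to 2.18, Crhbp of -1.38 to -1.24 and Vipr2 of -0.60 to -0.45. Each of the 10 genes moved by less than its SD pooled over both groups wherever it was tested. Glp2r was in the dimmest share left out in 1 setting. In most settings this was fixed in advance, so little weight is placed on it. Leaving out 1 of 3 arrays cannot move a difference by that SD. Settings that change only the variance, the block or the genes tested leave the difference unchanged. A larger move was possible only with quantile normalization, median centring, array weights or, for Vipr1, the mean of its probe sets. The count over all genes was 914, against 298 with all probe sets tested, 1544 with a trended and robust variance, and 453 to 979 when each array was left out in turn. On the signalling path 10 genes passed, against 2 with all probe sets tested and 5 to 11 when each array was left out. With the replicate number as a block, 589 genes passed over the table and 6 on the path, losing Prkar2a (0.0535), Prkar2b (0.0537), Rapgef3 (0.0725) and Gpr65 (0.0640); the markers Cd22 (0.0721) and Bst1 (0.0894) were lost too. Same-numbered arrays did not deviate together (correlations of -0.114, -0.372 and -0.0720), so the numbers were not taken as pairs. Each array deviated most like one of another number, ERT2 replicate 2 with CRE-ERT2 replicate 1 (0.449), ERT2 replicate 3 with CRE-ERT2 replicate 2 (0.396) and ERT2 replicate 1 with CRE-ERT2 replicate 3 (0.180); the labels give no such pairs and none was fitted. Of the 7 receptors that did not pass, 6 changed sign in at least 1 setting: Glp2r (-0.11 to 0.03), Gcgr (-0.10 to 0.02), Gipr (-0.19 to 0.0063), Sctr (-0.15 to 0.06), Vipr1 (-0.02 to 0.10) and Crhr1 (-0.05 to 0.02). The neighbours Dnah8 and F2r, which never passed, changed sign when single arrays were left out (-0.0389 to 0.0640 for Dnah8 and -0.0080 to 0.0420 for F2r). The causes were not tested.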
